A study of Mus musculus with 2 samples.

Results

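The 10 genes described here encode proteins that the liver secretes into blood plasma: Alb, Afp, Apoa1, Apoa2, Fga, Fgb, Fgg, Ahsg, Kng1 and Serpina1e. They were picked by name out of 43346 mouse genes quantified in the bladder of newborn mice. Earlier values from the same libraries had shown liver-type genes apart between the 2 animals, so the ratio between the animals chose the genes and is given below as a description, with no test. All 10 were found in both libraries, and all 10 averaged 20 counts or more over the pups, the minimum used for any ratio here. The samples were whole bladders of B6NCrl mice, an inbred strain derived from C57BL/6, taken on postnatal day 0. A single bladder came from pup 1 and a single one from pup 2, both labelled as from the same pregnancy, and the labels record no sex. Total RNA above 200 nt was sequenced from 10 ng with spike-in RNAs, 1 library per pup, so that each pup is a biological replicate of 1 group (n = 2) and no p-value across animals can be had.

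Plasma proteins of this kind are made mainly by hepatocytes, before birth also by the visceral endoderm of the yolk sac, and are carried to other organs as protein rather than as RNA. Albumin sets much of the oncotic pressure of blood, alpha-fetoprotein is its fetal relative, and apolipoproteins A-I and A-II form the protein shell of high density lipoprotein. The 3 fibrinogen chains assemble in equal numbers into the precursor of the fibrin clot. Genes of this kind are classic targets of the factors HNF1, HNF4, C/EBP and FOXA. In bulk RNA, fewer cells of a type and less RNA per cell cannot be told apart.

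The genes lie in known clusters, given here in the mm10 assembly (GRCm38). Alb (chromosome 5, 90460897 to 90476602) and Afp (90490737 to 90508907) stand in tandem on the plus strand, 14134 bases apart. Fgg (chromosome 3, 83007724 to 83015049) and Fga (83026076 to 83033627) are on the plus strand, 11026 bases apart, and Fgb (83040141 to 83049863) follows 6513 bases further on the minus strand. Ahsg (chromosome 16, 22891277 to 22899449) and Kng1 (23057865 to 23082078) share a stretch with Fetub, Hrg and Kng2. Apoa1 (chromosome 9, 46228580 to 46230466) stands beside Apoc3, Apoa4 and Apoa5, and Serpina1e (chromosome 12, 103946931 to 103958975) lies among near-identical copies of the alpha-1 antitrypsin gene. Apoa2 is on chromosome 1.

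RefSeq promoter windows (GRCm38.p6, 250 bases before to 50 after a start) were found for 9 of the 10 genes, all but Kng1, with 2 for Apoa2. The windows of Alb, Afp, Fga, Fgb and Serpina1e are shown because each holds the letters GTTAAT, part of the palindrome that HNF1 binds. Each is given 5′ to 3′ on the strand of its gene, and capitals mark GTTAAT on either strand (read as ATTAAC on the other) and, in Afp, TATAAA.
Alb, chr5:90460620-90460919, plus strand: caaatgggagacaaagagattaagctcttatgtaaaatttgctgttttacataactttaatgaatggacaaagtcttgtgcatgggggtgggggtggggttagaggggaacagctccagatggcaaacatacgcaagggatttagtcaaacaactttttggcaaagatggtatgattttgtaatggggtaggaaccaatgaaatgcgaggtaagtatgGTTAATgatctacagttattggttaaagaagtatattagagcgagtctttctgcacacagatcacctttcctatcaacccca
Afp, chr5:90490464-90490763, plus strand: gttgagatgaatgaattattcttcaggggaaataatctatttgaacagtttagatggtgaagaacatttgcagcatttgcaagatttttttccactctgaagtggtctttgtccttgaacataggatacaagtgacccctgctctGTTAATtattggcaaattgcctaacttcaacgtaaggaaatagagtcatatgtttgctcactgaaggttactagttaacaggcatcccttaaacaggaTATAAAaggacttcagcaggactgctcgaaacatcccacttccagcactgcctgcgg
Fga, chr3:83025903-83026202, plus strand: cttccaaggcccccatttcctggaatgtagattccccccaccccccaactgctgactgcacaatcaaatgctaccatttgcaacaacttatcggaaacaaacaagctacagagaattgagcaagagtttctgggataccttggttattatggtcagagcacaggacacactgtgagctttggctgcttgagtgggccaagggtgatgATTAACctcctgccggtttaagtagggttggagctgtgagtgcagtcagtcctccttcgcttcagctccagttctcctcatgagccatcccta
Fgb, chr3:83049814-83050113, minus strand: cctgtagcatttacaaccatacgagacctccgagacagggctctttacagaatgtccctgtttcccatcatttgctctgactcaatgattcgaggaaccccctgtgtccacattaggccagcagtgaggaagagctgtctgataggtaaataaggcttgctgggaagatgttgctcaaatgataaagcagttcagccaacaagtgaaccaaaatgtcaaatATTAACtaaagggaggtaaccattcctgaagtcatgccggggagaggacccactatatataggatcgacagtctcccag
Serpina1e, chr12:103956848-103957147, minus strand: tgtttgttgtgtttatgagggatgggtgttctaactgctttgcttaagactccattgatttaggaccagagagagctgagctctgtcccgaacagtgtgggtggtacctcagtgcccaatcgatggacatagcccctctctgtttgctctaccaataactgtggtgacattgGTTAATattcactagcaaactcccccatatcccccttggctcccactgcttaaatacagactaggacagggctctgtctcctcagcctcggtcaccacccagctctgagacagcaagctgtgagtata

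Positions count the first base of the RefSeq start of each window as 1. That start can differ from the gene spans given above, and the Serpina1e and Ahsg windows lie inside those spans. The match in Alb began at base -32, in Afp at -105, in Fga at -43, in Fgb at -29 and in Serpina1e at -78. GTTAAT stood on either strand in 5 of the 10 windows of these genes, against 7.10% of all 32851 windows. The full HNF1 palindrome, of which GTTAAT is a part, was in 0 of 10 windows and in 0.00913% of all. The letters CAAAGTCCA of an HNF4 element and TTGCGCAA of a C/EBP element were in 0 of 10 windows, against 0.475% and 0.183% of all. TGTTTAC, a FOXA element, was in 1 window, of Apoa2, against 3.65% of all, and TATAAA was in 2 windows, of Afp and Apoa2, against 13.6%. Both strands were searched for every motif, and a match describes the letters of these windows only.

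All 10 genes were detected in both bladders at low level. Their summed level was 101.85 TPM (reads per unit length, scaled to a sum of 1000000) in pup 1 and 21.56 TPM in pup 2. That sum came from 4135 counts in pup 1, or 94.7 in every 1000000 counts, and from 709 in pup 2, or 21.8 in every 1000000. At a threshold of 1 TPM, 10 genes passed in pup 1 and 7 in pup 2, where the fibrinogen genes stayed below it. The labelled tissue was plain from its own genes. All 7 superficial urothelium markers exceeded 1 TPM in both pups, with a summed level of 7546 TPM in pup 1 and 7323 TPM in pup 2. All 8 smooth muscle markers did so as well, with sums of 66882 TPM in pup 1 and 61534 TPM in pup 2.

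Alb, the most abundant protein of adult plasma, was at 15.71 TPM in pup 1 (914 counts) and 3.63 TPM in pup 2 (169 counts), a mean of 9.67 ± 8.54 TPM (SD, n = 2). Its scaled count was 4.09-fold higher in pup 1 than in pup 2, a log2 ratio of 2.03 with a 95% counting interval of 1.79 to 2.28. Afp, the fetal albumin relative, was at 9.43 TPM in pup 1 (561 counts) and 1.89 TPM in pup 2 (90 counts). The log2 ratio of Afp was 2.24 (1.91 to 2.57), so both tandem genes were well above 2-fold and their intervals overlapped. By TPM, Alb exceeded Afp 1.67-fold in pup 1 and 1.92-fold in pup 2. The next gene on the chromosome, Afm, which encodes the vitamin E binding protein afamin, had 0 counts in pup 1 and 1 in pup 2, and a count of 0 allows up to 3.

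Apoa1, the main protein of high density lipoprotein, had the highest level of the 10 in both pups, 20.96 TPM in pup 1 (585 counts) and 4.91 TPM in pup 2 (110 counts), a mean of 12.9 ± 11.3 TPM (SD, n = 2). Its log2 ratio was 2.01 (1.71 to 2.31). Apoa2, the second protein of these particles, was at 17.93 TPM in pup 1 (209 counts) and 3.43 TPM in pup 2 (31 counts), with a log2 ratio of 2.35 (1.80 to 2.94). The short Apoa2 transcript gave few counts for its TPM, and its interval was about as wide as those of the fibrinogen genes. The apolipoprotein neighbours of Apoa1 within 60000 bases were below 1 TPM in both pups and below the count minimum. The triglyceride regulator Apoc3 had 4 counts in pup 1 and 0 in pup 2, and its counterpart Apoa5 had 35 counts in pup 1 and 4 in pup 2. The chylomicron protein Apoa4 had 10.58 counts in pup 1 and 3 in pup 2. The flanking genes Sik3, a kinase, and Zpr1, a zinc finger protein, had log2 ratios of -0.11 and 0.05.

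The fibrinogen genes had the lowest mean TPM of the set. Fga, the alpha chain, was at 3.14 TPM in pup 1 (196 counts) and 0.48 TPM in pup 2 (23 counts), and its log2 ratio of 2.69 (2.06 to 3.38) was the highest of the 10. Fgb, the beta chain, was at 2.35 TPM in pup 1 (261 counts) and 0.57 TPM in pup 2 (51 counts), and its log2 ratio of 1.95 (1.51 to 2.41) was the lowest of the 10. The gamma chain gene Fgg was at 4.55 TPM in pup 1 (218 counts) and 0.79 TPM in pup 2 (30 counts), with a log2 ratio of 2.46 (1.90 to 3.06). The 3 intervals overlapped, although Fga and Fgb stood at both ends of the range. Summed over the chains there were 675 counts in pup 1 and 104 in pup 2, a 4.90-fold ratio (3.98 to 6.09). By TPM, Fga stood at 1.34 times Fgb in pup 1 and at 0.84 times in pup 2, and Fgg at 1.94 times Fgb in pup 1 and 1.39 times in pup 2. Plrg1, a spliceosome gene that follows Fgb, was at 37.41 TPM in pup 1 and 40.23 TPM in pup 2, with a log2 ratio of -0.20.

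Ahsg encodes fetuin-A, a mineral-binding protein and inhibitor of calcification. It was at 18.20 TPM in pup 1 (749 counts) and 3.77 TPM in pup 2 (124 counts), with a log2 ratio of 2.19 (1.91 to 2.48). Kng1, the precursor of bradykinin, was at 5.05 TPM in pup 1 (265.62 counts) and 1.08 TPM in pup 2 (48.67 counts), with a log2 ratio of 2.04 (1.59 to 2.51). Between them on the chromosome, the related inhibitor Fetub, the histidine-rich Hrg and the second kininogen gene Kng2 were each below 1 TPM in both pups. Kng2 was at 0.32 TPM in pup 1 and 0.09 TPM in pup 2. The kininogen copies can share reads, and the posterior SD of the Kng1 count was 0.456% of it in pup 1 and 1.30% in pup 2.

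Serpina1e, 1 of the mouse copies of the alpha-1 antitrypsin gene, was at 4.53 TPM in pup 1 (175.58 counts) and 1.01 TPM in pup 2 (31.67 counts). Its log2 ratio was 2.06 (1.51 to 2.65). The copies are near-identical, and the division of reads among them is an estimate: the posterior SD of the Serpina1e count was 2.68% in pup 1 and 5.68% in pup 2, and that of Serpina1c 13.7% in pup 1 and 25.9% in pup 2. Summed over Serpina1a to Serpina1e, which does not depend on that division, there were 498 counts in pup 1 and 96 in pup 2. That sum had a log2 ratio of 1.97 (1.65 to 2.30).

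**Figure D1:**
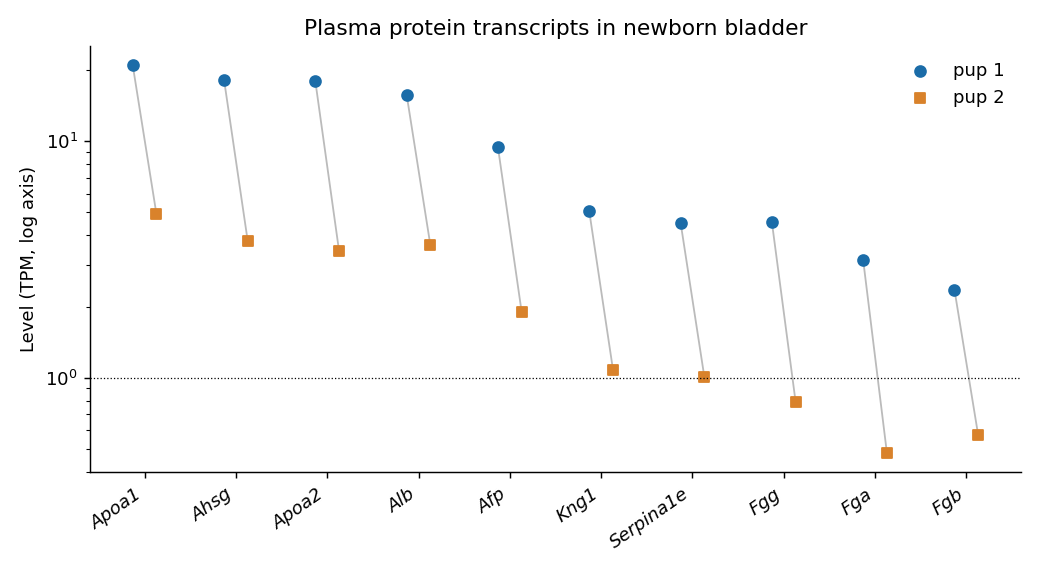
Level of each of the 10 genes in TPM (log axis) in pup 1 (circles) and pup 2 (squares), ordered by the mean of both, with the dotted line at 1 TPM. Every gene was higher in pup 1, and Fgg, Fga and Fgb were below 1 TPM in pup 2.

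All 10 genes were at least 2-fold higher in pup 1 than in pup 2, where 0.871% of the 15607 genes above the count minimum were, and 3.72% of those genes were 2-fold apart in either direction. As this ratio chose the genes, the count adds nothing to it. Their folds ran between 3.87 and 6.44 with a median of 4.36 (log2 2.12), beside a median log2 ratio of 0.02 over all genes tested. Pooled over the 10 genes the fold was 4.41 (4.07 to 4.78). The SD of the 10 log2 ratios was 0.24. Because the genes were picked for their ratio, how close the ratios lie to each other is a description too. The counting intervals carry no animal-to-animal spread, and what sets the pups apart (animal, dissection or library) cannot be told apart with 1 library per pup.

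**Figure D2:**
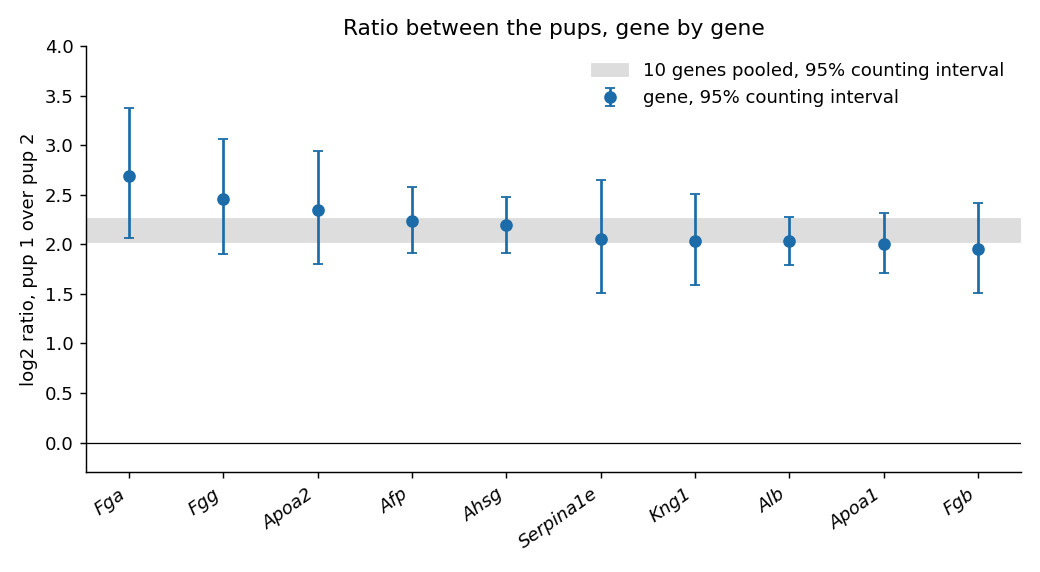
Log2 ratio of pup 1 over pup 2 for each of the 10 genes, with 95% counting intervals, and the interval of the 10 genes pooled as a grey band (2.02 to 2.26). The ratios ran between 1.95 for Fgb and 2.69 for Fga, and all intervals crossed the band.

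The proportions of the 10 genes to each other rest on the same ratios and are described without a test. By share of the summed TPM, Apoa1 took 20.6% in pup 1 and 22.8% in pup 2, and Ahsg 17.9% in pup 1 and 17.5% in pup 2. Apoa2 took 17.6% in pup 1 and 15.9% in pup 2, and Alb 15.4% in pup 1 and 16.8% in pup 2. Afp followed with 9.26% in pup 1 and 8.77% in pup 2. The other 5 genes took between 2.31% and 4.96% each in pup 1 and between 2.23% and 5.01% in pup 2. The largest gap was that of Apoa1, whose share was 2.19 percentage points smaller in pup 1. In order of TPM, Apoa1, Ahsg, Afp and Kng1 held the same place in both pups, while Apoa2 and Alb, Fgg and Serpina1e, and Fga and Fgb changed places. Apoa1 over Alb was 1.33 in pup 1 and 1.35 in pup 2 by TPM, and Ahsg over Alb was 1.16 in pup 1 and 1.04 in pup 2.

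Shares of counts can carry counting intervals. Alb took 22.1% of the 10 genes' counts in pup 1 (20.8% to 23.4%) and 23.8% in pup 2 (20.7% to 27.1%, exact Clopper-Pearson intervals at 95%). Fga was the farthest apart in relative terms, with 4.74% in pup 1 (4.11% to 5.43%) and 3.24% in pup 2 (2.07% to 4.83%), and its intervals still overlapped. Here the longer genes weigh more than by TPM, so Alb led by counts and Apoa1 by TPM.

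**Figure D3:**
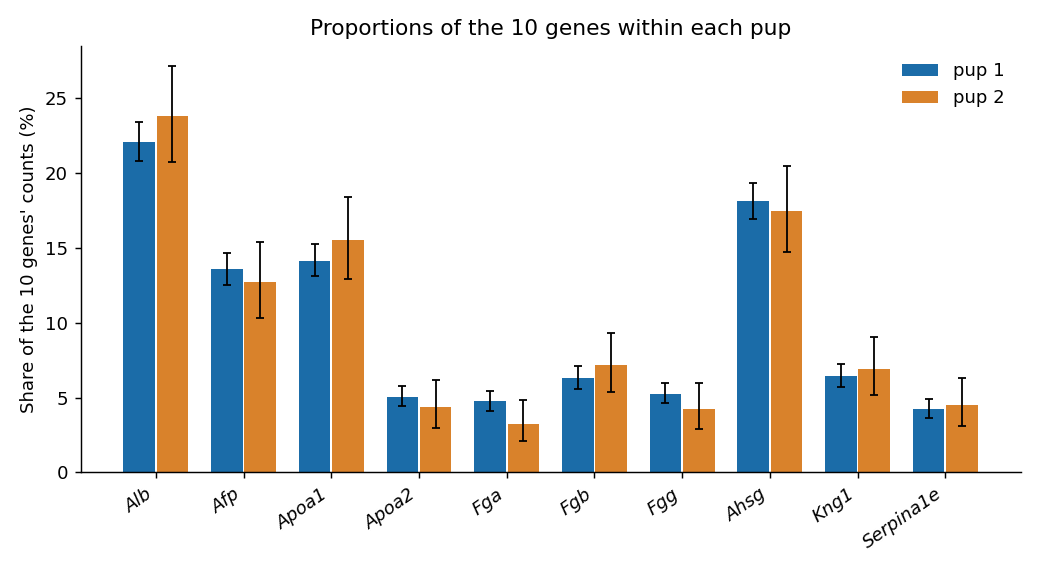
Share of each gene in the summed expected counts of the 10 genes (percent), in pup 1 (left bar) and pup 2 (right bar) with exact 95% intervals for counting error. The bars of each pair overlapped in their intervals, with Alb at 22.1% in pup 1 and 23.8% in pup 2.

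Transcripts of the 10 genes could be compared in part. Alb, Afp, Fgb and Ahsg had 1 transcript each in the deposited files, and the other 6 genes had several. Of 21 transcripts in all, 3 were at 0 counts in pup 1 and 9 in pup 2. The shorter Fga transcript (2083 nt) took 80.0% of Fga in pup 1 and 100% in pup 2, and the longer one (2587 nt) had 46.77 estimated counts in pup 1 and 0 in pup 2. For Kng1, a transcript of 1985 nt took 55.8% in pup 1 and 100% in pup 2, and a shorter one of 1663 nt had 98.47 counts in pup 1 and 0 in pup 2. The leading Fgg transcript (1695 nt) took 89.7% in pup 1 and 100% in pup 2. An Apoa2 transcript of 492 nt led in both pups, at 56.1% in pup 1 and 56.6% in pup 2, while the second place went to one of 470 nt in pup 1 and one of 458 nt in pup 2. The leading Serpina1e transcript (1295 nt) took 64.5% in pup 1 and 59.5% in pup 2. Fga, Fgg, Apoa2 and Kng1 had between 23 and 49 counts in pup 2. Transcript counts are estimated divisions of shared reads, and the error of that division was not used here, so a transcript at 0 counts is listed at 0 with no bound.

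Genes of other plasma proteins, not all of them particular to the liver, did not move as 1 block. Of 54 further genes in 4 lists, 33 passed the count minimum. Of these, 13 were at least 2-fold higher in pup 1 and 7 at least 2-fold lower, beside 0.871% and 2.84% of all genes tested, and their median log2 ratio was 0.60 beside 0.02 over all genes. Klkb1, on the clotting list, was not analysed here.

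Among apolipoproteins, 2 of 6 tested genes were 2-fold higher in pup 1 and 3 were 2-fold lower. Apoh, beta-2 glycoprotein I, was at 3.63 TPM in pup 1 and 0.87 TPM in pup 2, a log2 ratio of 2.30. Apob, the structural protein of low density lipoprotein, had 71 counts in pup 1 and 4 in pup 2, a log2 ratio of 3.75 (2.33 to 5.66). By TPM it was at 0.21 in pup 1 and 0.05 in pup 2, with an estimated length of 11438 bases in pup 1 and 3230 in pup 2. In the opposite direction, Apoe was at 415.94 TPM in pup 1 and 1866.78 TPM in pup 2 (log2 -2.25), Apoc1 at 46.30 TPM in pup 1 and 101.19 TPM in pup 2 (-1.21) and Apoc2 at 3.62 TPM in pup 1 and 23.46 TPM in pup 2 (-2.85). Apoe, Apoc1 and Apoc2 are also made by macrophages. Apoc4, beside them in the genome, was at 2.92 TPM in pup 1 and 2.63 TPM in pup 2.

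Of the protease inhibitors, 6 of 13 tested genes were 2-fold higher in pup 1 and 1 was 2-fold lower. The 6 were Serpina1a, Serpina1b, Serpina1c and Serpina1d, with log2 ratios of 1.43, 2.08, 1.72 and 2.75, the antiplasmin gene Serpinf2 at 1.38 and Pzp, of the alpha-2-macroglobulin family, at 3.04 (98 counts in pup 1 and 9 in pup 2). The antithrombin gene Serpinc1 had 0.68, and the inter-alpha-trypsin inhibitor chains Itih2, Itih3 and Itih4 had 0.48, 0.48 and 0.66. Serpina3n, an acute phase serpin, was the highest of the list at 35.78 TPM in pup 1 and 59.26 TPM in pup 2 (log2 -0.81), and Serpina3m was at -1.58. Mug1 had 0 counts in both pups.

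Clotting and carrier proteins were divided too. Prothrombin, F2, was at 1.24 TPM in pup 1 and 0.32 TPM in pup 2 (log2 1.82) and plasminogen, Plg, at 0.68 TPM in pup 1 and 0.11 TPM in pup 2 (2.54), whereas F10 was at 1.20 TPM in pup 1 and 3.52 TPM in pup 2 (-1.72) and F5 at 0.12 TPM in pup 1 and 0.25 TPM in pup 2 (-1.08). Vtn, vitronectin, had 0.96. Among carriers, the vitamin D binding protein Gc, an albumin relative, had a log2 ratio of 2.35, the haem carrier Hpx 1.46 and Igfbp1 1.18. Transferrin, Trf, was at 118.80 TPM in pup 1 and 281.82 TPM in pup 2 (-1.47). The selenium carrier Selenop at 158.13 TPM in pup 1 and 143.51 TPM in pup 2, the retinol carrier Rbp4 at 67.47 TPM in pup 1 and 69.91 TPM in pup 2, and haptoglobin, Hp, at 4.62 TPM in pup 1 and 5.55 TPM in pup 2 lay close together.

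Most genes that act inside hepatocytes were at low level, 15 of 20 enzymes being below 1 TPM in both pups. Of 8 tested, 7 were higher in pup 1 by any amount, beside 8218 of all 15607 genes tested. Of 20 hepatocyte enzymes, 8 passed the count minimum, of which 5 were at least 2-fold higher in pup 1 and 0 lower. The list median was a log2 ratio of 1.28, with summed levels of 28.07 TPM in pup 1 and 19.03 TPM in pup 2, most of it from Fah. Among the 5, Bhmt, of methionine metabolism, had a log2 ratio of 1.64, Cyp3a11 1.38, Fbp1 1.38 and Cps1, the first enzyme of the urea cycle, 1.18. Fah, of tyrosine breakdown, was the highest of the list at 16.64 TPM in pup 1 and 13.63 TPM in pup 2 (0.21), and Hal had -0.21. Ugt2b1 was at 0 counts in both pups. Of 9 surface and binding proteins 2 were tested, the fatty acid binding protein Fabp1 with 92 counts in pup 1 and 25 in pup 2 (1.48) and Tfr2 (0.35).

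Of 7 tested liver transcription factors, 1 was higher in pup 1 and 6 were lower by any amount, beside 7389 of all 15607 genes tested that were lower. Past 2-fold, 0 were 2-fold higher in pup 1 and 1, Cebpa, was 2-fold lower, at 1.32 TPM in pup 1 and 3.45 TPM in pup 2 (log2 -1.47). Cebpb was at 22.52 TPM in pup 1 and 40.32 TPM in pup 2 and Foxa1 at 12.13 TPM in pup 1 and 11.68 TPM in pup 2. Hnf4a had 34 counts in pup 1 and 24 in pup 2 (0.10). Foxa1 is also expressed in epithelia of the urogenital tract.

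Several receptors and partners of the plasma proteins were more abundant by TPM than any of the 10 genes. The neonatal Fc receptor Fcgrt, which rescues albumin from degradation, was at 101.69 TPM in pup 1 and 118.11 TPM in pup 2, and the lipoprotein receptor Scarb1 at 44.09 TPM in pup 1 and 37.36 TPM in pup 2. Itgb3, part of a fibrinogen receptor, was at 124.32 TPM in pup 1 and 91.31 TPM in pup 2, and Pltp, which transfers phospholipid to lipoproteins, at 61.28 TPM in pup 1 and 78.58 TPM in pup 2. The 14 tested genes had a median log2 ratio of -0.09. Among them 0 were 2-fold higher in pup 1 and 3 were 2-fold lower, namely the fibrinogen-binding integrin Itgam (-2.62), the inducible bradykinin receptor Bdkrb1 (-1.66) and the lipid exporter Abcg1 (-1.40).

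**Figure D4:**
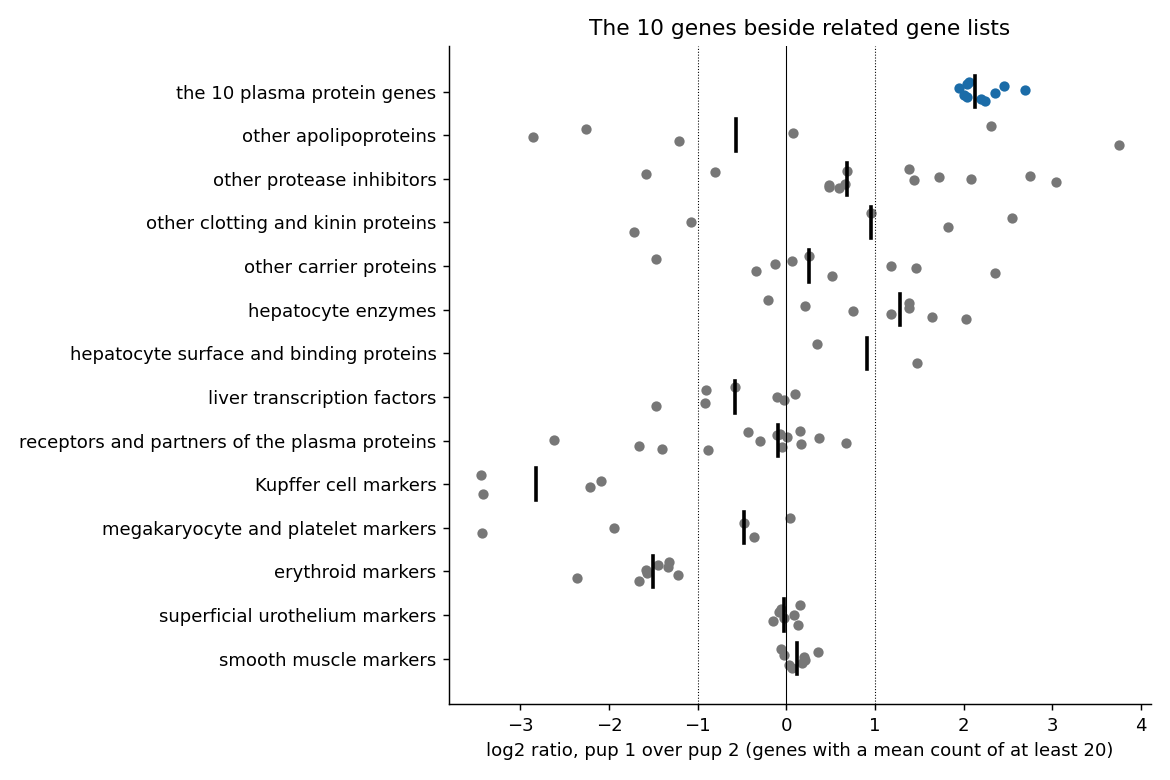
Log2 ratio of pup 1 over pup 2 for every gene that averaged 20 counts or more in the 10 plasma protein genes and in 13 other gene lists, with list medians as black bars and dotted lines at 2-fold. The 10 genes lay together at a median of 2.12, hepatocyte enzymes had a median of 1.28, and erythroid and Kupffer cell markers had medians of -1.51 and -2.82.

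The tested genes of the Kupffer and red blood cell marker lists went the other way. Kupffer cell markers were tested in 4 of 5 cases, and all 4 were at least 2-fold lower in pup 1, with log2 ratios between -3.44 for Vsig4 and -2.09 for Timd4. Their summed level was 2.63 TPM in pup 1 and 14.89 TPM in pup 2. The most specific of them, Clec4f, was below the count minimum, with 3 counts in pup 1 and 0 in pup 2. The direction of the list thus rests on the 4 tested markers without it. Those 4 cannot tell Kupffer cells from other macrophages. Of 4 tested liver sinusoid and stellate markers, only Fcna was 2-fold apart, lower in pup 1 (-2.66). Stab2 had -0.06, Reln -0.13 and Oit3 0.62, and the list median was -0.10. All 8 erythroid markers were 2-fold lower in pup 1, with a summed level of 21722 TPM in pup 1 and 59107 TPM in pup 2. Of 5 tested platelet markers 0 were 2-fold higher in pup 1 and 2, Itga2b and Gp9, were 2-fold lower, with sums of 317 TPM in pup 1 and 428 TPM in pup 2. The part of these cells in the result was not tested.

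Markers of gut epithelium, yolk sac endoderm, kidney tubule and pancreas acini were read as well. Of 8 gut epithelium markers, Cdx1, Cdx2 and Sis had 0 counts in both pups, and Lgals4 alone was tested, at 7.31 TPM in pup 1 and 8.88 TPM in pup 2. Yolk sac endoderm markers, of which all but Soat2 also stand in other lists, had a median log2 ratio of 0.09 over 6 tested genes and sums of 74.93 TPM in pup 1 and 76.30 TPM in pup 2, most of it from Rbp4. In pup 2 that sum was above the 21.56 TPM of the 10 genes, and the part of such cells in the result was not tested. Of 8 kidney markers 5 had 0 counts in both pups and 0 were tested, and of 6 pancreas markers 3 had 0 counts in both pups and 0 were tested.

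The 10 genes were picked for their ratio between the pups, so their ranks and the number of genes near them are a description only. Besides the 10, 17 genes above the count minimum had a log2 ratio within the range of the 10, 1.95 to 2.69. Of these, 5 stood in the lists, among them Plg, Gc, Apoh and Serpina1b. The other 12 stood in no list: 7 entries with Gm symbols, Alkal1 (2.29), Efhb (1.95), the fibrinogen-like Fgl1 (2.23), the methionine adenosyltransferase Mat1a (2.18) and the fatty acid transporter Slc27a2 (2.13). They were named after their values were seen. The 7 Gm entries had a posterior SD between 22.4% and 77.8% of the posterior mean count in pup 2, so their ratios are uncertain. By TPM, Gm14440 was lower in pup 1, at 1.25 TPM against 7.61 TPM in pup 2. The 10 genes held ranks between 14 and 40 of 15607 by this ratio, counted from the highest in pup 1. Outside the set, the 10 highest ratios belonged to Ywhaq-ps3, Gm10273, Gm28221, Tmem254a, an entry with no matched symbol, Gm13414, Apob, Gm17711, Cyp4a14 and Gm10925. For 8 of them, all but Apob and the fatty acid hydroxylase Cyp4a14, the posterior SD was between 67.45% and 86.84% of the posterior mean count in pup 2, so their ratios rest on an uncertain division of reads.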

How the data were processed

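Total RNA-seq of newborn bladder was read from 1 gene file and 1 transcript file per pup. The authors deposited expected counts (estimated reads per gene or transcript, on mm10 with GENCODE M4 per the text listing beside the files), TPM values scaled to 1000000 over all entries of a file, and the percent of each gene taken by a transcript. The deposited posterior SD of a count, per the file headers, was used as a score of uncertain read division. For aligner, estimator version and strand, the sources used here state nothing, so antisense and overlapping genes cannot be separated.

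Of 43346 mouse genes, 42462 were matched by identifier to GENCODE M21 for names and positions. Libraries held 43653536 expected counts of mouse genes in pup 1 and 32564256 in pup 2. Spike-in entries held 0.0008% of counts in each. Rounded expected counts were scaled by TMM factors (edgeR 4.0.16, R 4.3.3), a count of 0 was set to 3, and log2 ratios of pup 1 over pup 2 were taken with exact Clopper-Pearson intervals at 95%, which cover counting error only, since PCR copies are not told apart. A mean count of at least 20 was needed. With 1 library per pup no test across animals was run. The ratio step was tested on simulated counts. Python 3.11.15, pandas 2.3.3, numpy 2.4.6, scipy 1.17.1 and, for an alternative scaling, DESeq2 1.42.0 were used.

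The 10 genes, the gene lists and the motifs were chosen with earlier results of these data known. Named genes are the 10, up to 4 per list by mean TPM, list genes 2-fold apart or at 0 counts, and the 10 other genes with the highest ratio. Neighbouring genes within 60000 bases were taken by position. Sums over gene groups, the neighbours and other single genes were added after the values were seen. Some list genes enter the counts and medians but are not reported here by name.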

Additional observations from a re-analysis of the deposited data

How the results depend on the processing

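No paired analysis was possible because both pups belong to 1 group. The 10 genes were all at least 2-fold higher in pup 1 under each of the 8 alternatives tried for that count. Their median log2 ratio of 2.12 was 2.25 by ratios of TPM and 1.74 with 1 added to TPM. Over 60 single-gene ratios under alternatives, 54 stayed within the main counting interval and 6 were lower, all with 1 added to TPM, where the ratios ran between 1.09 and 2.10. Leaving out either pup leaves a level and no ratio. No scaling moved the median of all genes by 0.1, the largest shift being 0.08 by TPM. With 1 added to TPM, the genes 2-fold higher in pup 1 were 59 of all tested, 1 apolipoprotein, 2 protease inhibitors, 0 clotting proteins, 1 carrier and 1 hepatocyte enzyme, a scale that shrinks the ratio of a gene near or below 1 TPM. With no minimum of counts, 1775 of all genes were scored as 2-fold higher in pup 1. So were 5 apolipoproteins, 8 clotting proteins, 11 hepatocyte enzymes, 6 surface and binding proteins and 1 transcription factor. Because a count of 0 was set to 3, these numbers can hold genes with fewer reads in pup 1. That transcription factor, Onecut1, and the surface protein Asgr2 each had 0 counts in pup 1 and 1 in pup 2. Both were still scored at a log2 ratio of 1.18. How many of the 1775 were of this kind was not counted. Where the minimum was a mean count of 100, 36 of all genes were 2-fold higher in pup 1, against 136 in the main count. There were 0 in each of the lists of apolipoproteins, protease inhibitors, clotting proteins, carriers, hepatocyte enzymes and surface proteins, where fewer genes were tested. As a mean of both pups, shares by expected count were 23.0% for Alb, 13.1% for Afp, 14.8% for Apoa1, 4.72% for Apoa2, 3.99% for Fga, 6.76% for Fgb, 4.75% for Fgg, 6.65% for Kng1 and 4.36% for Serpina1e, against 16.1%, 9.01%, 21.7%, 16.8%, 2.65%, 2.48%, 4.07%, 4.98% and 4.57% by TPM, since counts rise with transcript length. By posterior mean TPM, Ahsg took 17.2% and Kng1 5.68%. Without Serpina1e, Afp took 9.44%, Ahsg 18.5% and Kng1 5.22%. Counts of 23 to 51 in pup 2 limit the fibrinogen genes, Apoa2, Kng1 and Serpina1e.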
